A study of Mus musculus with 12 samples.

Results

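Genes of glycolysis and of the glucose metabolism linked to oxygen sensing were followed in BMDMs, which are macrophages obtained by culturing the bone marrow of mice. The 36 genes were chosen by symbol: hexokinases, glycolytic enzymes, lactate dehydrogenases, the kinases that gate pyruvate dehydrogenase, glycogen and pentose phosphate enzymes, Hif1a and 2 prolyl hydroxylases. All 36 were found by Ensembl identifier among the 48526 genes of the raw count table, and 35 passed the filter of at least 10 counts in at least 3 of 12 libraries. The exception was Pdk4, with 0 to 4 counts in 11 libraries and 25 in the other. RNA came from BMDMs of 3 female C57Bl/6J mice, whose age the labels do not give. The cells of every group were grown from whole marrow with 10 ng/mL m-CSF in medium with 1 g/L glucose and used on day 7. Each mouse gave 4 samples, 1 per group, all taken at 16 hr: Untreated, Wnt3a (100 ng/mL of this Wnt ligand), IL4 (IL-4 at 100 pg/mL) and Wnt3a+IL4 (both at these doses). The study asked how Wnt signaling changes the response of macrophages to IL-4.

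The Wnt3a and Wnt3a+IL4 columns of the deposited table share reads within each mouse, which has to be known before any value is read. In each mouse, 0 genes had a Wnt3a count under the Wnt3a+IL4 count or over double that count. Between columns of different mice, 6681 to 8625 genes lay outside these bounds. Each mouse therefore has a "difference" (the Wnt3a column minus the Wnt3a+IL4 column) and a "remainder" (the Wnt3a+IL4 column minus that difference), and both come from Wnt3a-treated cells. The labels do not tell which of them had IL-4 as well, and the values were not used to choose. The mean Wnt3a effect below is the mean of both parts minus the mean of Untreated and IL4, and is the same under either assignment. Unless said otherwise, values in sets of 3 are for mouse 1, 2 and 3 in that order, and levels are in CPM (counts scaled to a common library size) adjusted by TMM, a normalization of library composition.

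As background, glycolysis splits glucose into pyruvate in the cytosol. Hexokinases trap glucose as glucose 6-phosphate, phosphofructokinases commit it to the pathway, and pyruvate is either reduced to lactate or burned in mitochondria after pyruvate dehydrogenase. Hif1a encodes the oxygen-regulated subunit of a transcription factor that raises many glycolytic genes. When oxygen is present, the prolyl hydroxylases Egln1, Egln2 and Egln3 mark this subunit for destruction through Vhl, so that its protein level does not have to follow its mRNA. In macrophages, glycolysis is known to rise with inflammatory activation, while IL-4 is known for a program that also uses oxidative metabolism.

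The letters before the start site are shown for 5 genes, chosen because the results turn on them. Hif1a was taken for the largest change against Untreated and Egln3 for the largest between remainder and difference. Ldha was taken as a textbook target of Hif1a, and Pygl and Hk3 for opposite differences between remainder and difference. Each line holds the 250 bases before the first RefSeq start site of the gene, 5′ to 3′ on the gene's strand, from GRCm38.p6, the build that mm10 names. Capitals mark ACGTG or GCGTG, the core of the element that Hif1a is known to bind, on either strand (so also CACGT or CACGC), with overlapping matches run together. Hif1a lies on chr12:73901375-73947530 (+ strand) and its window on chr12:73907617-73907866. Egln3 lies on chr12:54178981-54203860 (- strand) and its window on chr12:54203875-54204124. The window of Ldha (+ strand) is chr7:46845554-46845803, that of Pygl (- strand) chr12:70227684-70227933, and that of Hk3 (- strand) chr13:55021386-55021635. None of these 5 windows overlaps an annotated exon of its gene.
Hif1a: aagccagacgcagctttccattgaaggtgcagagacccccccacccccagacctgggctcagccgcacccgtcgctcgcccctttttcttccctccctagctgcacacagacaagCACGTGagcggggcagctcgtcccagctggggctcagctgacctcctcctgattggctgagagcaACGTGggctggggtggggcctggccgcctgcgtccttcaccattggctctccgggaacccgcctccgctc
Egln3: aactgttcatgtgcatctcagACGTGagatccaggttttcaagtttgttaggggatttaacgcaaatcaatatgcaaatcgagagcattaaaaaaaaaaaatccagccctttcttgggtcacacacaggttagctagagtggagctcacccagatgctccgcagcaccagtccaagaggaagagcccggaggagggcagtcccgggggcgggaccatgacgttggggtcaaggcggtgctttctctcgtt
Ldha: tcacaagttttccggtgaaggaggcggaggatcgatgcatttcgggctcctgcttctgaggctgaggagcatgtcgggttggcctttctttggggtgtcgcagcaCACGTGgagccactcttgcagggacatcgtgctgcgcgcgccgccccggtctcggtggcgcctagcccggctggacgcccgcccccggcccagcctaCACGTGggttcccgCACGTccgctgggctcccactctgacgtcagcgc
Pygl: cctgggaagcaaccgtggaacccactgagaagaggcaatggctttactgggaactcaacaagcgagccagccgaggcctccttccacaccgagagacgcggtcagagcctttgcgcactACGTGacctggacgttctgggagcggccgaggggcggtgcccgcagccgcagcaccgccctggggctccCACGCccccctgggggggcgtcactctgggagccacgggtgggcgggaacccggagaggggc
Hk3: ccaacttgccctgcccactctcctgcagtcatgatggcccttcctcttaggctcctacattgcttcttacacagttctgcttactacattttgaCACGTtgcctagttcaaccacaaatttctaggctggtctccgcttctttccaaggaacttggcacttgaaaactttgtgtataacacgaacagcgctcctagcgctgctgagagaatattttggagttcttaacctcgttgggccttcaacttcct
Ldha and Hif1a hold the palindrome CACGTG, and Ldha holds it at 2 places. All 36 genes had an entry among the RefSeq windows, which run from 250 bases before to 50 after each start. Of 51 such windows of these genes, 40 (78.4%) held a match, against 43.8% of all 32851 windows. Of the 25 genes that rose under the mean Wnt3a effect, 22 had a window with a match, and of the other 11, 10 had one. Over genes, 32 of the 36 had a window with a match, against 46.7% of all genes with a window and 68.0% of the tested genes with one. The comparison with tested genes is void, since only 74.7% of them had a window, and nothing is read from these shares. A match is a run of letters and not a measured binding site.

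The libraries held 13342492 to 17453377 counts, the derived parts included. The macrophage markers were abundant, with all 8 tested and summed levels from 44114 to 68134 CPM, 4 of them higher and 2 lower under the mean Wnt3a effect. Of 8 neutrophil markers, 5 could be tested and 4 of these fell under the mean Wnt3a effect, with summed levels of 39.3 to 49.6 CPM in Untreated, 51.5 to 61.3 in IL4, 28.9 to 45.8 in the difference and 26.2 to 30.4 in the remainder. Ly6g, a defining neutrophil marker, was at 0 CPM in all 3 Untreated libraries. Summed stromal markers stayed between 10.5 and 34.0 CPM, with 2 of 4 tested higher and 1 lower, and 7 cell cycle genes summed to 128 to 255 CPM, with 1 higher and 1 lower. Summed lymphocyte markers reached 0.505 CPM at most, erythroid markers 0.229 and dendritic cell markers 2.40. Over all 12421 tested genes, 16.5% were higher and 16.1% lower under the mean Wnt3a effect. The part of these markers in the results below was not tested. Of 8 IL-4 markers, 5 rose in IL4 against Untreated, and their summed levels were 52.5 to 85.2 CPM in Untreated, 273 to 360.3 in IL4, 43.7 to 59.2 in the difference and up to 228 (210.0 ± 16.0, SD, n = 3) in the remainder. Of 6 Wnt target genes, 2 could be tested and 1 (Rnf43) fell under the mean Wnt3a effect. Axin2, a defining Wnt target that was too low to be tested, stood at 0, 0 and 0.0627 CPM in Untreated, 0, 0.0639 and 0 in IL4, 0.0572, 0.0611 and 0.364 in the difference and 0.683, 0.553 and 0.854 in the remainder.

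In each part of the Wnt3a-treated cells, all of the glucose metabolism genes that passed against Untreated had risen under TMM scaling, and few passed with IL-4 alone. In the difference, 23 of the 35 tested genes rose against Untreated and 0 fell, where 23.2% of all 12421 tested genes were called (11.8% higher and 11.4% lower). Their median log2 fold change was 0.42, against -0.01 over all tested genes. In the remainder, 19 rose and 0 fell (16 and 0 with the mouse as a block, where Gapdh, Gpi1 and Tkt were lost), with a background of 25.3% called (13.6% higher and 11.7% lower) and a median of 0.29 against -0.02. Both comparisons share the 3 Untreated samples, so they are not independent of each other. Under the mean Wnt3a effect, 25 rose and 1 (Taldo1) fell, with a background of 32.6% called (16.5% higher and 16.1% lower) and a median of 0.38 against -0.02. IL4 against Untreated gave 0 higher and 3 lower, with 3.40% of all genes called (1.09% lower). Calls are from edgeR's quasi-likelihood test with a Benjamini-Hochberg adjusted p under 0.05 across all tested genes. In whole cultures, fewer cells of a kind and less RNA per cell cannot be told apart.

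**Figure D1:**
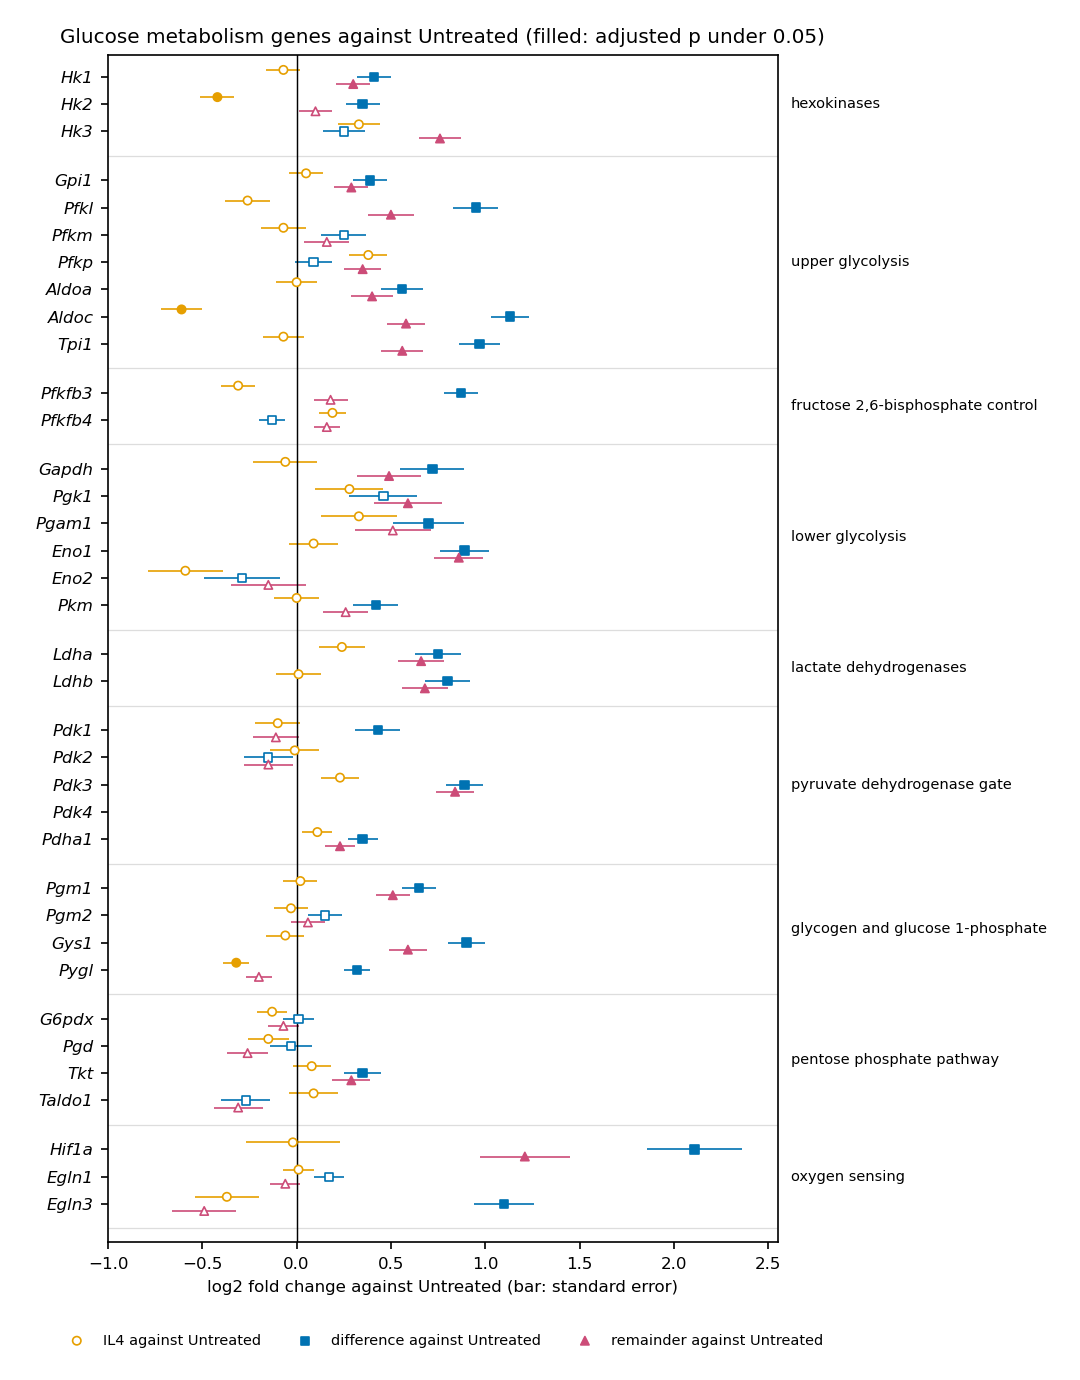
Log2 fold change against Untreated of each gene (rows, grouped by role) in IL4 (circles), the difference (squares) and the remainder (triangles), with standard errors as bars; filled symbols passed the test at an adjusted p under 0.05. Squares and triangles lie mostly to the right of 0, with Hif1a farthest at 2.11 and 1.21, while the 3 filled circles (Hk2, Aldoc and Pygl) lie to the left, and Pdk4, which was not tested, has no symbol.

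These counts depended on mouse 3 more than on the other mice. Without mouse 3, 12 genes rose in the difference, 9 in the remainder and 16 passed under the mean Wnt3a effect, and 0 passed in IL4. The calls over all genes fell too, so this drop was not particular to these genes. Over all genes they went from 2884 to 1220 in the difference and from 3137 to 1375 in the remainder. Under the mean Wnt3a effect they went from 4050 to 2081, and in IL4 from 422 to 77. Over all 15 fits that left out a library or a mouse, 12 genes passed each time in the difference (Aldoc, Egln3, Eno1, Gys1, Hif1a, Ldha, Ldhb, Pdk3, Pfkfb3, Pfkl, Pgm1 and Tpi1) and 9 in the remainder (Aldoc, Eno1, Gys1, Hif1a, Hk3, Ldha, Ldhb, Pdk3 and Tpi1). Scaling by total counts alone, which moved the median of all genes in the remainder to -0.13 on the log2 scale, gave 12 higher and 5 lower there in place of 19 and 0. In that scaling Egln3, G6pdx, Pgd, Pygl and Taldo1 were the 5 lower genes, and the difference had 22 higher and 2 lower (Pfkfb4 and Taldo1).

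Hif1a had the largest change. It stood at 58.4, 33.7 and 55.8 CPM in Untreated, 42.6, 48.3 and 55.1 in IL4, 259, 206 and 172 in the difference, and 87.2, 163 and 91.5 in the remainder. Both parts were above every Untreated and IL4 library, and in the remainder mouse 2 stood apart from the other two. The log2 fold change against Untreated was 2.11 in the difference (SE 0.25, adjusted p = 2.7e-05), which is 4.31-fold, and 1.21 in the remainder (SE 0.24, adjusted p = 0.0021), which is 2.31-fold. Without mouse 2 the value in the remainder was 0.66 (adjusted p = 0.011). Of the bases in exons of Hif1a, 5.60% are overlapped by a gene on the other strand, and whether counting used the strand is not given in the sources used here.

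Egln3, a prolyl hydroxylase whose own gene is a known target of Hif1a, rose in the difference and did not pass in the remainder. Its levels were 4.51, 4.95 and 4.20 CPM in Untreated, 3.66, 3.58 and 3.32 in IL4, 8.87, 11.1 and 9.38 in the difference, and 3.85, 3.26 and 2.63 in the remainder. Every difference library was above every other library, and every remainder library was below every Untreated one. Egln3 rose by 1.10 on the log2 scale in the difference (SE 0.16, adjusted p = 1.7e-04), and its value of -0.49 in the remainder did not pass (SE 0.17, adjusted p = 0.0526). These values rest on 40 to 182 counts per library. Egln1, the hydroxylase held to act most on Hif1a at normal oxygen, did not pass in either part, with group means of 56.0 ± 5.21 CPM in Untreated, 63.2 ± 2.21 in the difference and 53.8 ± 0.801 in the remainder (SD, n = 3).

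**Figure D2:**
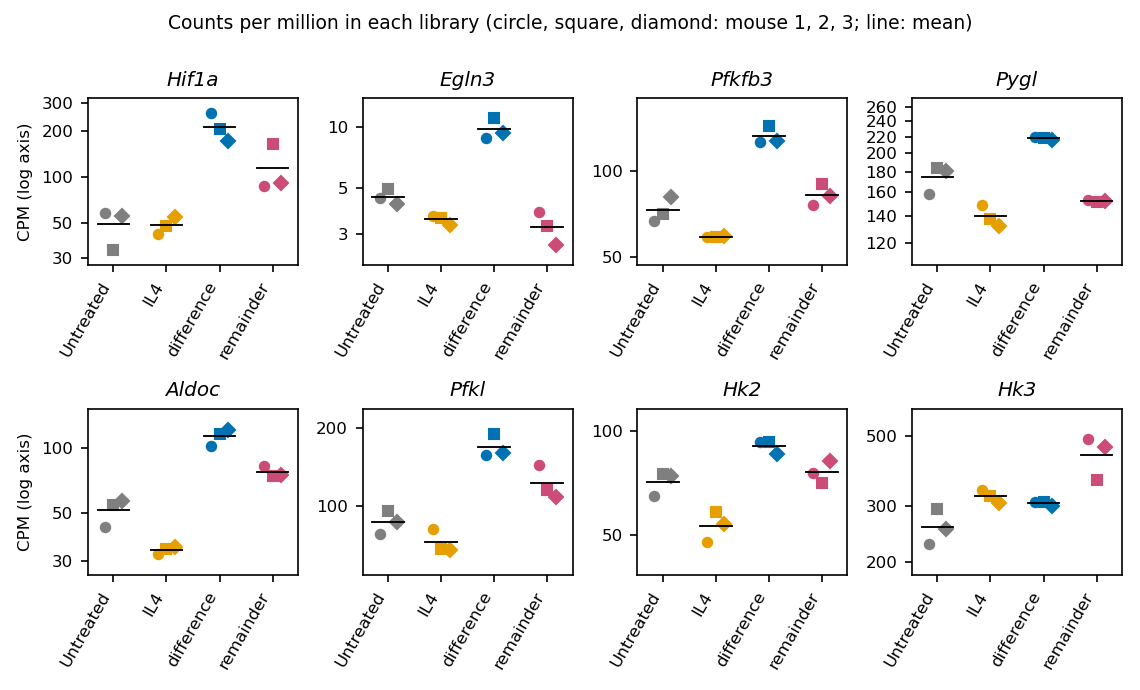
Levels of 8 genes in each of the 12 libraries, in CPM on a log axis, by group, with circles, squares and diamonds for mouse 1, 2 and 3 and a line at the group mean. Hif1a is higher in both parts, Egln3, Pfkfb3 and Pygl are higher in the difference alone, and Hk3 is highest in the remainder, at 361 to 486 CPM.

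All 3 hexokinase genes, which carry out the first step of glycolysis, rose under the mean Wnt3a effect. Between the parts Hk3 differed by the test, while Hk1 and Hk2 did not pass (log2 ratios of remainder to difference of -0.11 and -0.25, adjusted p = 0.56 and 0.14). Hk1 rose by 0.41 in the difference and by 0.30 in the remainder on the log2 scale (SE 0.09 for both, adjusted p = 0.0042 and 0.023), the latter 0.46 without mouse 2 (adjusted p = 0.0043). The remainder call of Hk1 was lost without mouse 1 or mouse 3, and without the Untreated or remainder library of either. It was also lost with only the groups compared and with scaling by total counts alone. The difference call of Hk1 was lost without mouse 3. Hk2, the inducible form, stood at 64.8, 74.9 and 74.1 CPM in Untreated, 47.9, 58.2 and 53.9 in IL4, 92.8, 92.7 and 86.0 in the difference and 75.5, 70.9 and 82.0 in the remainder. Every IL4 library was below every Untreated one, and every difference library was above the other 9 libraries. Hk2 rose by 0.35 in the difference (SE 0.09, adjusted p = 0.013), fell by 0.42 in IL4 (SE 0.09, adjusted p = 0.02) and had 0.10 in the remainder (adjusted p = 0.47). Hk3, the hexokinase gene with the highest level per kb of exon in Untreated, stood at 227, 294 and 253 CPM in Untreated, 338, 323 and 307 in IL4, 308, 309.8 and 299.5 in the difference and 486, 361 and 459.8 in the remainder. The remainder was above all other libraries. Hk3 rose by 0.76 in the remainder (SE 0.11, adjusted p = 1.6e-04), and its values of 0.25 in the difference (adjusted p = 0.13) and 0.33 in IL4 (adjusted p = 0.16) did not pass.

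In upper glycolysis, from glucose 6-phosphate to the 3-carbon sugars, 6 of 7 genes rose under the mean Wnt3a effect, 5 in the difference and 6 in the remainder. Pfkl, the liver form of phosphofructokinase (chr10:77986947-78010083), stood at 78.0, 96.0 and 87.2 CPM in Untreated, 81.9, 68.8 and 67.9 in IL4, 157, 189.7 and 159.7 in the difference and 144, 115 and 109 in the remainder. The parts did not overlap with each other or with the other groups. Pfkl rose by 0.95 in the difference (SE 0.12, adjusted p = 5.2e-05) and by 0.50 in the remainder (SE 0.12, adjusted p = 0.0073), where leaving out mouse 1 gave 0.29 (adjusted p = 0.061). Its muscle and platelet relatives moved less. Pfkm had 0.25 and 0.16 in the parts, neither past the test, and passed only as the mean of both (0.24, SE 0.08, adjusted p = 0.038), with 0.15 without mouse 3 (adjusted p = 0.4) and an adjusted p of 0.058 with the mouse as a block. Pfkp had 0.09 in the difference (adjusted p = 0.57) and rose by 0.35 in the remainder (adjusted p = 0.022).

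The aldolases split fructose 1,6-bisphosphate. Aldoc (chr11:78322968-78327781, + strand) stood at 43.3, 54.6 and 57.1 CPM in Untreated, 32.4, 34.1 and 35.0 in IL4, 102, 116 and 121 in the difference and 82.8, 74.5 and 74.7 in the remainder, so that none of the 4 groups overlapped. It rose by 1.13 in the difference (SE 0.10, adjusted p = 2.6e-06) and by 0.58 in the remainder (SE 0.10, adjusted p = 7.8e-04). The much more abundant Aldoa rose by 0.56 and 0.40 (SE 0.11 for both, adjusted p = 0.0023 and 0.018), from 1328 ± 140.3 CPM in Untreated to 1955 ± 67.0 and 1747 ± 239.6 (SD, n = 3), and in the remainder it had 0.22 without mouse 1 (adjusted p = 0.15). Tpi1, which interconverts the products, rose from 217, 276 and 229 CPM in Untreated to 477, 489.9 and 450.0 in the difference and 418, 336 and 312 in the remainder. These are log2 fold changes of 0.97 (adjusted p = 2.4e-05) and 0.56 (adjusted p = 0.002), the latter 0.36 without mouse 1 (adjusted p = 0.028). Gpi1, the isomerase before phosphofructokinase, rose by 0.39 and 0.29, the latter 0.16 without mouse 1 (adjusted p = 0.19). With the mouse as a block the remainder call of Gpi1 was lost (adjusted p = 0.051), and 11.5% of its exon bases overlap a gene on the other strand.

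Pfkfb3 and Pfkfb4 make and remove fructose 2,6-bisphosphate, the strongest activator of phosphofructokinase, and Pfkfb3 is the form that favors making it. Pfkfb3 (chr2:11471433-11554077, - strand) stood at 67.2, 71.0 and 81.1 CPM in Untreated, 58.9, 58.9 and 59.5 in IL4, 127, 144 and 128 in the difference and 76.1, 90.2 and 81.7 in the remainder. The difference was above every other library, while the remainder overlapped with Untreated. Pfkfb3 rose by 0.87 in the difference (SE 0.09, adjusted p = 7.1e-06) and had 0.18 in the remainder (SE 0.09, adjusted p = 0.16). Pfkfb4 (chr9:108991778-109032228, + strand) had values of -0.13 and 0.16, neither past the test, and group means of 62.4 ± 2.23 CPM in Untreated, 57.1 ± 2.24 in the difference and 69.9 ± 3.57 in the remainder.

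In lower glycolysis, where ATP is made, 5 of 6 genes rose under the mean Wnt3a effect, and Eno2 had 0.07 (adjusted p = 0.74). Eno1, the common enolase, rose from 116, 138 and 117 CPM in Untreated to 218, 234 and 231 in the difference and 271, 185 and 214 in the remainder, with log2 fold changes of 0.89 and 0.86 (SE 0.13 for both, adjusted p = 1.8e-04 and 2.0e-04). Pkm, whose pyruvate kinase makes the last step, rose from 1383 ± 120.0 CPM to 1852 ± 13.1 in the difference (0.42, adjusted p = 0.023) and had 0.26 in the remainder (adjusted p = 0.14), where mouse 2 was at 1317 CPM and the others at 1945 and 1720. The difference call of Pkm was lost without mouse 1 or mouse 3, without the Untreated library of either, and without any single difference library. For Gapdh, Pgk1, Pgam1, Eno1 and Pkm, many 50-base stretches occur in other transcripts as well. The share was 53.9% for Pgk1, 36.2% for Pgam1, 26.0% for Eno1, 25.8% for Pkm and 25.1% for Gapdh (58.4% of its coding transcripts), and HTSeq by default leaves out a read that maps to several places. What this did to their levels was not tested. Gapdh had 65 to 131 counts per library, or 3.96 to 9.38 CPM. As counted, Gapdh rose by 0.72 and 0.49 (adjusted p = 0.0057 and 0.0464, the latter 0.069 with the mouse as a block), Pgam1 by 0.70 in the difference (adjusted p = 0.018) and Pgk1 by 0.59 in the remainder (adjusted p = 0.026). Pgam1 had 0.34 without mouse 1 (adjusted p = 0.19) and 0.43 without its difference library (adjusted p = 0.099), which stood at 16.9 CPM beside 10.6 and 10.8. The levels of these genes are uncertain.

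Both lactate dehydrogenase genes rose in both parts. Ldha, whose enzyme turns pyruvate into lactate, stood at 336, 388 and 337 CPM in Untreated, 459, 416 and 381 in IL4, 605, 607 and 571 in the difference and 668, 467 and 542 in the remainder. All 6 libraries of the parts were above the 6 others. Ldha rose by 0.75 and 0.66 (SE 0.12 for both, adjusted p = 3.3e-04 and 7.5e-04). Ldhb, the form more common in oxidative tissue, rose by 0.80 and 0.68 (SE 0.12 for both, adjusted p = 2.0e-04 and 7.1e-04), from 12.7 ± 1.78 CPM to 22.2 ± 1.74 and 20.3 ± 1.54 (SD, n = 3).

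At the gate into the mitochondria, the 4 Pdk kinases switch pyruvate dehydrogenase off, and Pdha1 encodes the subunit they modify. Pdk3 (chrX:93764607-93832201, - strand) stood at 11.3, 11.5 and 10.2 CPM in Untreated, 13.3, 12.1 and 13.3 in IL4, 20.9, 19.8 and 20.4 in the difference and 20.4, 19.2 and 19.7 in the remainder. Its parts overlapped each other and lay above every other library. Pdk3 rose by 0.89 and 0.84 (SE 0.10 for both, adjusted p = 1.2e-05 and 1.7e-05). Pdk1 (chr2:71873224-71903858, + strand), a known target of Hif1a, rose by 0.43 in the difference (SE 0.12, adjusted p = 0.014), from 35.4, 34.7 and 29.7 CPM to 50.6, 43.0 and 40.9, and had -0.11 in the remainder, at 29.9, 33.8 and 28.4 CPM (adjusted p = 0.51). The difference call of Pdk1 was lost without mouse 3 or its Untreated library, and without the difference library of mouse 1. It was also lost with scaling by total counts alone, and Pdk1 did not pass under the mean Wnt3a effect. Pdk2 had -0.15 in each part (adjusted p = 0.46 and 0.42). Pdha1 rose by 0.35 and 0.23 (adjusted p = 0.0045 and 0.044), with 16.1% of its exon bases under a gene on the other strand. Its remainder call was lost without mouse 1, mouse 2 or mouse 3, with only the groups compared and with scaling by total counts alone. Its difference call was lost without mouse 2 or mouse 3. Pdk4, with at most 4 counts outside 1 library, is given no fold.

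Of the genes between glycogen and glucose 6-phosphate, 3 of 4 rose under the mean Wnt3a effect. Gys1, glycogen synthase, stood at 22.7, 28.4 and 26.1 CPM in Untreated, 47.9, 50.7 and 45.4 in the difference and 40.5, 39.3 and 36.2 in the remainder, with log2 fold changes of 0.90 and 0.59 (SE 0.10 for both, adjusted p = 1.7e-05 and 6.3e-04). Pygl, the liver form of the phosphorylase that takes glycogen apart, stood at 158, 184 and 181 CPM in Untreated, 149, 137 and 132 in IL4, 219, 218 and 216 in the difference and 153, 151 and 152 in the remainder. The spread between mice within each part was under 2 CPM (SD 1.58 and 1.17), and the remainder was below every Untreated library. Pygl rose by 0.32 in the difference (SE 0.07, adjusted p = 0.0061) and had -0.20 in the remainder (SE 0.07, adjusted p = 0.063). Pgm1 (ENSMUSG00000025791, on chromosome 4) rose by 0.65 and 0.51 (adjusted p = 1.3e-04 and 8.6e-04), and Pgm2 (ENSMUSG00000029171, on chromosome 5) did not pass, with 0.15 and 0.06.

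In the pentose phosphate pathway, which makes NADPH and ribose, 1 of 4 genes rose and 1 fell under the mean Wnt3a effect. G6pdx, its entry enzyme, and Pgd, the next NADPH-making enzyme, did not pass in any comparison with Untreated, with log2 fold changes between -0.26 and 0.01. G6pdx averaged 469 ± 33.3 CPM in Untreated, 471 ± 13.3 in the difference and 445 ± 30.8 in the remainder (SD, n = 3). Of the 2 enzymes that shuttle carbon back to glycolysis, Tkt rose by 0.35 and 0.29 (adjusted p = 0.022 and 0.049), the latter 0.17 without mouse 1 (adjusted p = 0.31) and 0.45 without mouse 2 (adjusted p = 0.0091). With the mouse as a block the remainder call of Tkt was lost (adjusted p = 0.081). Its difference call was lost without mouse 1 or mouse 3, without the Untreated library of either, and without the difference library of mouse 2 or mouse 3. Taldo1 was the 1 gene of the 35 that fell under the mean Wnt3a effect, by 0.34 on the log2 scale (SE 0.09, adjusted p = 0.011). It stood at 763, 898 and 772 CPM in Untreated, 972, 822 and 796 in IL4, 663, 639 and 712 in the difference and 765, 516 and 679 in the remainder, where mouse 1 overlapped with Untreated. Without mouse 2 its value was -0.21 (adjusted p = 0.077).

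Per kb of exon and as counted, the Untreated cells gave the highest levels to Aldoa (456 ± 48.2 CPM per kb), Taldo1 (374 ± 34.8) and Pkm (277 ± 24.0). Pgd (163 ± 10.8) and G6pdx (152 ± 10.8) followed and did not differ beyond their spread. This may not be the order of the transcripts themselves, since reads that map to several places may have been left out. In Untreated, Gapdh was counted at 1.21 ± 0.114, Pgk1 at 9.42 ± 1.74 and Eno1 at 22.9 ± 2.30 CPM per kb. Of the short stretches in their coding transcripts, 58.4%, 68% and 49.5% occur in other transcripts as well. What this did to the order and to the sums below was not tested. Hif1a was at 8.36 ± 2.30 CPM per kb and Egln3 at 1.71 ± 0.142 (SD, n = 3). All 36 genes together summed to 8040 ± 650.4 CPM in Untreated, 8044 ± 672 in IL4, 10444 ± 118 in the difference and 9417 ± 1168 in the remainder. The summed levels of upper glycolysis ran from 1951 to 2374 CPM in Untreated and from 3179 to 3382 in the difference without overlap, and those of the pentose phosphate pathway from 2666 to 3091 and from 2767 to 2966 with overlap.

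With IL-4 alone, the 3 genes that passed all fell: Hk2 by 0.42, Aldoc by 0.61 (SE 0.11, adjusted p = 0.0041) and Pygl by 0.32 (SE 0.07, adjusted p = 0.026). All 3 IL4 libraries were below the 3 Untreated ones in each of them. The IL4 and Untreated libraries did not overlap in 9 of the 35 tested genes. The share over all genes was not computed, so nothing is read from this count. Pfkp had 0.38 (adjusted p = 0.061) and Pfkfb3 -0.31 (adjusted p = 0.09). Of the 3 calls, those of Hk2 and Pygl were lost without the Untreated library of mouse 2 or of mouse 3 or the IL4 library of mouse 3. That of Hk2 was also lost without the IL4 library of mouse 1, and that of Pygl without the IL4 library of mouse 2. The call of Aldoc was lost without mouse 2 or mouse 3. Without mouse 2 the single call was Eno2, and without the remainder library of mouse 2, which changes the estimate of the spread, 6 genes passed. With the mouse as a block the calls were Aldoc, Hk2 and Eno2.

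Between the parts, most of the genes were lower in the remainder. Of 35, 30 had a negative log2 ratio of remainder to difference, with a median of -0.13 against 0.01 over all genes. By the test, 7 were lower and 2 higher in the remainder, with a background of 5.25% called (2.38% lower and 2.87% higher). The 7 lower genes were Egln3 (-1.59, SE 0.17, adjusted p = 5.9e-05), Hif1a (-0.90, SE 0.24, adjusted p = 0.044), Pfkfb3 (-0.69, adjusted p = 3.3e-04), Aldoc (-0.55, adjusted p = 0.0058), Pdk1 (-0.55, adjusted p = 0.013), Pygl (-0.52, adjusted p = 7.8e-04) and Pfkl (-0.46, adjusted p = 0.041). The 2 higher genes were Hk3 (0.51, SE 0.11, adjusted p = 0.015) and Pfkfb4 (0.29, SE 0.07, adjusted p = 0.028). In all 9 the 3 libraries of 1 part lay beyond the 3 of the other, as they did in 15 of the 35 tested genes, these 9 included. The share of all genes without overlap was not computed, so neither count is read as support for the calls. Tpi1 had -0.41 (adjusted p = 0.0502). Egln3 and Pfkfb3 passed in every fit that left out a library or a mouse, and were the 2 calls left without mouse 3. The count was 5 without the difference library of mouse 1 or of mouse 2, and 4 without the remainder library of mouse 3. Hif1a was at -0.57 without mouse 1 (adjusted p = 0.36). With the mouse as a block 6 passed, and the calls of Hif1a, Pfkfb4 and Pfkl were lost.

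**Figure D3:**
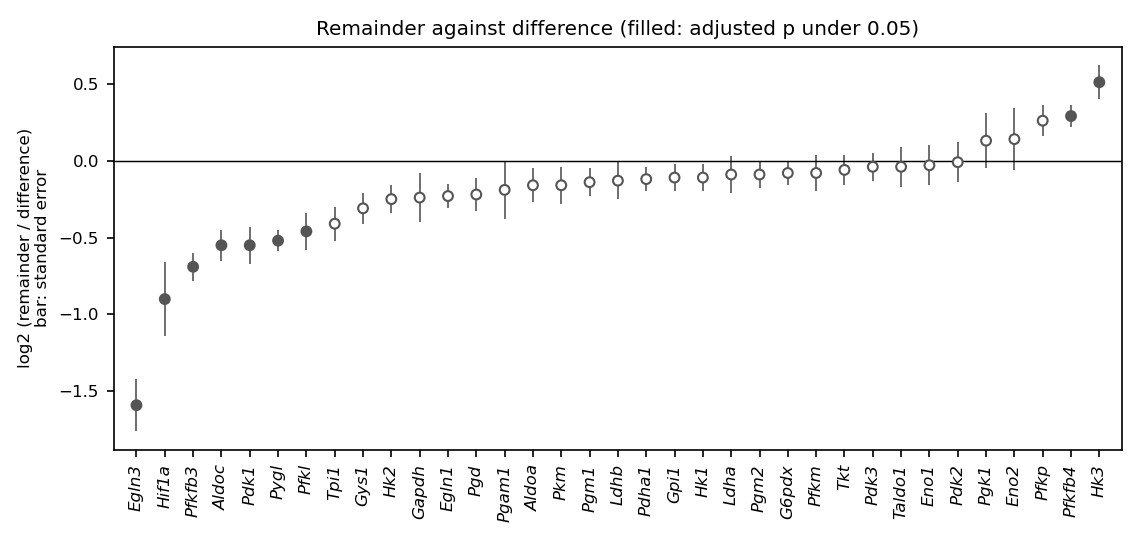
Log2 ratio of remainder to difference for the 35 tested genes in order of size, with standard errors as bars and filled points for an adjusted p under 0.05. Egln3 stands lowest at -1.59 and Hk3 highest at 0.51, and 30 of the 35 points lie below 0.

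Whether the effect of IL-4 differs with Wnt3a was tested under both assignments of the parts, and the answer depends on the assignment. With the remainder taken as Wnt3a+IL4, 0 of the 35 genes passed the interaction test of edgeR, where 0.105% of all genes did (0.0403% higher and 0.0644% lower). At an unadjusted p under 0.05 there were 6, and DESeq2 called 1 (Egln3). With the difference taken as Wnt3a+IL4, 10 passed, where 7.33% of all genes did (2.91% higher and 4.42% lower). The 7 with a positive interaction were Egln3, Aldoc, Pfkfb3, Pygl, Pfkl, Hk2 and Pdk1, and the 3 with a negative interaction were Hk3, Pfkp and Pfkfb4. Without mouse 3 this count was 4, and the values were 0.40 for Pdk1 without mouse 1 (adjusted p = 0.24) and 0.46 for Pfkl without mouse 2 (adjusted p = 0.14).

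The make-up of some enzyme families differed between Wnt3a-treated and other libraries. Shares of a family's summed CPM per kb were compared between the 6 libraries of the parts and the 6 of Untreated and IL4 by an exact two-sided permutation test over all splits, adjusted over 14 shares. Each mouse gives 2 libraries to each side, so the 6 are not 6 animals, and the p-values ignore the mouse. An exact permutation within each mouse, added after seeing the data, called the same 8 shares, with adjusted p from 0.026 to 0.0486. Shares of a family add up to its whole, so a rise of 1 lowers the others and the 8 calls are not independent. A lower share need not be a lower level. Pdk2 did not pass as a level in either part, and Pfkm rose under the mean Wnt3a effect. Pfkl took 47.1, 49.4 and 50.3% of the phosphofructokinase total in Untreated, 42.4, 40.9 and 42.2% in IL4, 61.7, 64.1 and 60.4% in the difference and 56.1, 54.0 and 49.0% in the remainder. The mean share was 57.5 ± 5.60% with Wnt3a and 45.4 ± 4.05% without (SD, n = 6, exact p = 0.0065, adjusted p = 0.015). The shares of Pfkm (22.7 against 27.2%, exact adjusted p = 0.015) and Pfkp (19.8 against 27.5%, exact adjusted p = 0.034) were lower. By group, Pfkp took 23.6 ± 1.58% in Untreated, 31.4 ± 0.887% in IL4, 16.5 ± 1.36% in the difference and 23.1 ± 2.71% in the remainder (SD, n = 3), so that Untreated and the remainder overlapped. Among the pyruvate dehydrogenase kinases, Pdk3 rose from 28.6 ± 2.73% to 40.1 ± 2.11% and Pdk2 went from 45.9 ± 3.66% to 34.8 ± 3.15% (SD, n = 6). Both had an exact p of 0.0022, the smallest that these splits can give, and an adjusted p of 0.01. The share of Pgm1 against Pgm2 was 51.3 ± 1.55% with Wnt3a and 43.6 ± 1.85% without (n = 6, exact p = 0.0022), that of Eno1 94.3 against 90.7% (exact p = 0.019, adjusted 0.034) and that of Aldoa 95.6 against 97.2% (exact p = 0.0043, adjusted 0.015). The mean share of Eno1 was 88.8% in Untreated, 92.6% in IL4, 94.7% in the difference and 93.9% in the remainder. Its IL4 and remainder libraries overlapped. Aldoa had 96.6, 97.8, 95.1 and 96.2% in the same order (n = 3), and its Untreated and remainder libraries overlapped. The hexokinase shares did not pass, with Hk3 at 73.6 ± 4.95% and 74.5 ± 3.94% (n = 6, exact p = 0.64). By group the mean share of Hk2 was 12.2 ± 0.705% in Untreated, 7.97 ± 0.963% in IL4, 12.6 ± 0.239% in the difference and 8.49 ± 0.843% in the remainder (SD, n = 3).

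**Figure D4:**
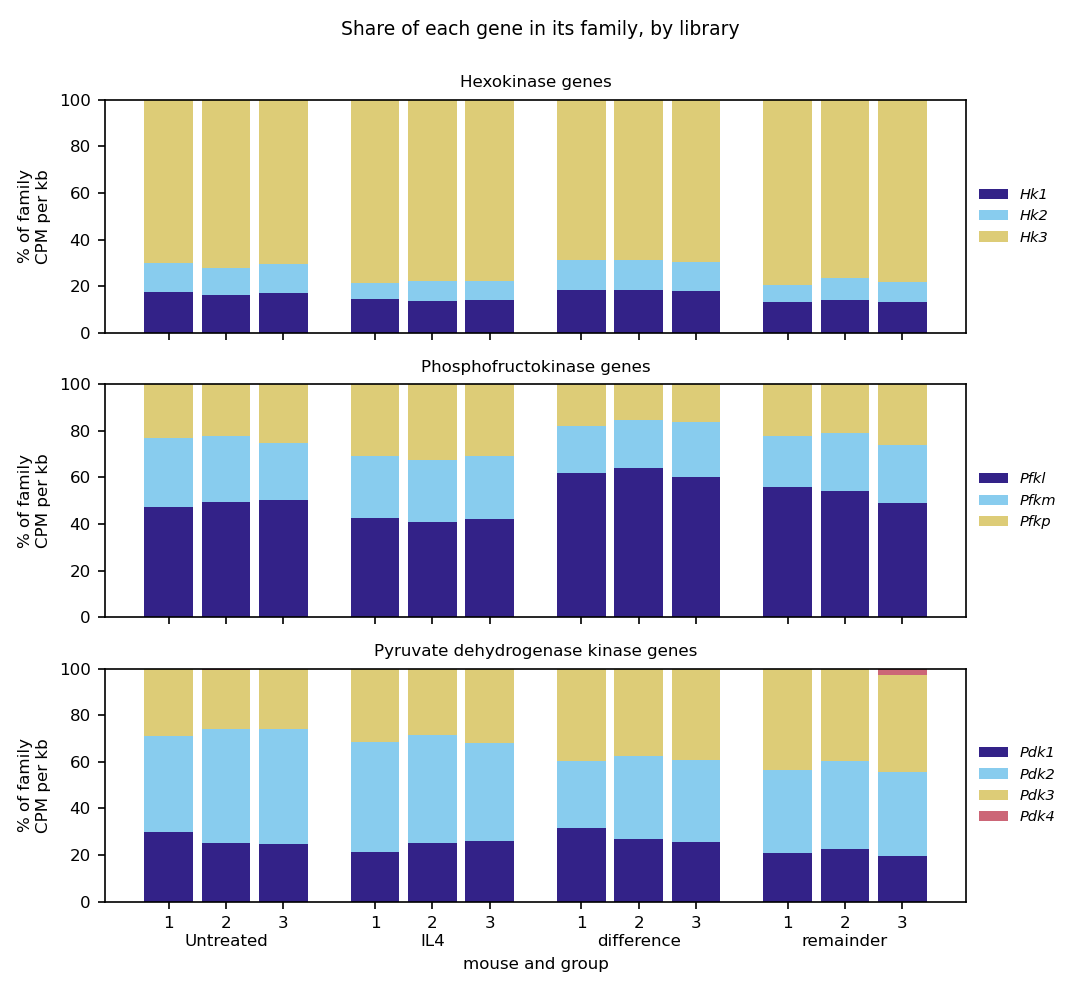
Share of each gene in the summed CPM per kb of its family, in percent, for hexokinases, phosphofructokinases and pyruvate dehydrogenase kinases, with 1 bar per library (mouse 1 to 3 in each group). Pfkl takes 49.0 to 64.1% in the libraries of the 2 parts and 40.9 to 50.3% in the others, and Pdk3 takes 37.4 to 43.3% and 25.3 to 31.8%.

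Genes around these pathways moved in both directions. Of 90 genes listed for glucose and lactate transport, other glycolytic, glycogen and pentose phosphate enzymes, mitochondrial pyruvate use, oxygen sensing and Hif1a targets outside glucose metabolism, 74 could be tested, and 21 rose and 10 fell under the mean Wnt3a effect. Over all 12421 tested genes, 16.5% were higher and 16.1% lower. The median log2 change of the 74 was 0.07. In IL4, 1 rose and 1 fell, where 2.31% of all tested genes were higher and 1.09% lower. Among 8 transporters, 4 rose and 2 fell. Slc16a3, the lactate exporter induced by low oxygen, stood at 54.3, 70.9 and 56.6 CPM in Untreated, 157, 177 and 153 in the difference and 137, 104 and 98.6 in the remainder, a mean Wnt3a effect of 1.20 (SE 0.09, adjusted p = 1.6e-07). Slc2a1, the main glucose transporter of activated macrophages, rose by 0.66 (adjusted p = 7.3e-06) and Slc2a6 by 1.04 (adjusted p = 7.6e-06), while Slc2a3 fell by 0.51 (adjusted p = 6.1e-04). Slc16a1 had 0.14 (adjusted p = 0.33). Of 5 tested enzymes in the other pentose phosphate list, 0 passed in edgeR in any of the comparisons with Untreated.

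Of 5 other oxygen-sensing genes tested, 0 rose and 1 fell under the mean Wnt3a effect in edgeR's test, with 2 at an unadjusted p under 0.05. Epas1, the related subunit known as HIF-2 alpha, stood at 9.30, 10.2 and 10.7 CPM in Untreated, between 9.17 and 9.81 in IL4, 4.24, 4.27 and 3.56 in the difference and 2.61, 4.98 and 4.14 in the remainder. All 6 libraries of the parts were below the 6 others, and the mean Wnt3a effect was -1.29 (SE 0.13, adjusted p = 3.5e-06). Arnt, the partner of both subunits, had -0.03, Egln2 -0.07 and Vhl 0.03, none past the test (adjusted p = 0.72, 0.46 and 0.83), while Vhl rose by 0.31 in the remainder (adjusted p = 0.0482). Of 17 tested Hif1a targets outside glucose metabolism, 7 rose and 3 fell, where 16.5% of all tested genes were higher and 16.1% lower. Ndrg1, a stress gene, fell by 1.22 (SE 0.08, adjusted p = 4.0e-08), from 90.9, 99.9 and 87.4 CPM in Untreated to 41.2, 47.7 and 47.9 in the difference and 27.8, 27.6 and 37.4 in the remainder. The collagen prolyl hydroxylases went apart, P4ha1 up by 0.44 and P4ha2 down, at -0.70 (adjusted p = 1.0e-05 and 2.7e-04), and Ero1l, an oxidase of the endoplasmic reticulum, rose by 0.51 (adjusted p = 1.6e-04). Vegfa, the angiogenic factor, had 0.14 (adjusted p = 0.32) and Bnip3, a mitophagy gene, 0.22 (adjusted p = 0.28). Vegfa fell in IL4, by 0.65 (adjusted p = 0.024). Ak4, a mitochondrial adenylate kinase of the same list, was singled out after its values were seen. It stood at 0.806, 1.09 and 1.00 CPM in Untreated, 0.899, 1.15 and 1.23 in IL4, 8.47, 9.28 and 7.27 in the difference and 5.90 ± 1.13 in the remainder (SD, n = 3), a mean Wnt3a effect of 2.77 (SE 0.15, adjusted p = 7.1e-09).

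Further enzymes around pyruvate, glycogen and amino sugars complete the list of named genes. Pcx, which feeds pyruvate into gluconeogenesis, rose by 1.17 under the mean Wnt3a effect (SE 0.13, adjusted p = 9.0e-06), with group means of 8.20 ± 2.31 CPM in Untreated, 17.8 ± 1.32 in the difference and 14.0 ± 1.68 in the remainder (SD, n = 3). Gfpt1, the first enzyme of the hexosamine branch, rose by 0.70 (adjusted p = 5.1e-05). Phka2, a subunit of the kinase that switches glycogen phosphorylase on, fell by 0.78 (adjusted p = 1.4e-07) and rose by 0.36 in IL4 (adjusted p = 0.025).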

How the data were processed

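RNA from BMDMs of 3 mice under 4 conditions was sequenced as single reads. The deposited table holds unnormalized counts, which the authors made with Trimmomatic 0.36, STAR 2.6.0 and HTSeq 0.11.1 on mm10, per the labels and methods; the submitters' notes also list FastQC 0.11.7, SAMtools 1.9 and DESeq2 1.24.0. Strand setting in counting is not given in the sources used here. The Wnt3a and Wnt3a+IL4 columns (29879207 to 51905621 counts) were replaced by their difference and remainder.

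A gene was fitted if 3 or more of the 12 libraries had 10 or more counts (12421 of 48526), with edgeR 4.0.16 in R 4.3.3 (quasi-likelihood, TMM, group as the only term, Benjamini-Hochberg over all genes, adjusted p under 0.05). Standard errors are the absolute log2 fold change over the square root of F. CPM are TMM-scaled, and CPM per kb divide by the exon length in GENCODE, whose identifiers gave a symbol to 48058 genes. Promoter windows are from RefSeq (GRCm38.p6). The test was checked on simulated counts.

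Equal replicate numbers mark the same mouse in the labels, so the samples are paired. Deviations from group means correlated between samples of a mouse with r from -0.42 to 0.45 over 18 pairs.

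All 36 genes are named. Of the pathway lists, the text names the called genes with the largest mean Wnt3a effect (at most 12, with at least 8 CPM in the higher condition) and a fixed set of transporters, HIF factors and hypoxia targets. The members, lists, markers and tests were chosen with earlier results of these data known. Alternatives covered scaling, filters, DESeq2 1.42.0, thresholds, the groups fitted, the columns as labelled, the replicate block, and leaving out each library or mouse.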

Additional observations from a re-analysis of the deposited data

Results flagged for a closer look

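Under the assignment of the difference to Wnt3a+IL4, the effect of IL-4 differed between cells with and without Wnt3a in 10 of the 35 genes, by edgeR's interaction test with Benjamini-Hochberg adjustment. The interaction, on the log2 scale, was 1.96 for Egln3, 1.16 for Aldoc, 1.00 for Pfkfb3, 0.84 for Pygl, 0.71 for Pfkl, 0.67 for Hk2 and 0.65 for Pdk1. It was -0.84 for Hk3, -0.64 for Pfkp and -0.48 for Pfkfb4. With the remainder as Wnt3a+IL4, 0 of these genes passed, and Egln3 had -1.22 (SE 0.24, adjusted p = 0.082). The labels do not decide between the assignments. Under the assignment with 10 calls, 7 of 8 IL-4 markers had a negative interaction past the same test, and 0 of 8 passed under the other. Arg1, an IL-4 marker, stood at 1.56, 1.66 and 1.37 CPM in IL4 (mouse 1, 2 and 3), against 0, 0.0611 and 0 for the difference and 25.0, 5.96 and 7.49 for the remainder. The interaction values above are therefore conditional on an assignment under which Wnt3a+IL4 cells would hold less Arg1 than IL4 cells. By group mean, Ccl17, Socs1 and Cish were, like Arg1, higher in the remainder than in IL4. The other markers were lower in the remainder, with Retnla at 41.9 CPM in IL4 and 0.0207 in the remainder. Mrc1 was at 222 and 142, Mgl2 at 11.6 and 4.59 and Chil3 at 28.0 and 19.6. For Retnla, Mrc1, Mgl2 and Chil3, Wnt3a+IL4 cells would hold less than IL4 cells under either assignment.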

How the results depend on the processing

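Counts below are of the 35 tested genes. For IL4 against Untreated (3 called), the count was 6 with all genes of at least 1 count, 5 with DESeq2, 7 with the columns as labelled, 1 at an adjusted p under 0.01 and 0 when a log2 fold change of 1 or more in size was also required (the fold limit), and from 0 to 6 when a library or mouse was left out. For the difference (23), it was 3 with the fold limit and 12 to 25 with a library or mouse left out. For the remainder (19), it was 12 with only the groups compared, 11 at an adjusted p under 0.01, 1 with the fold limit and 9 to 20 with a library or mouse left out. For remainder against difference (9), it was 0 with the columns as labelled, 4 at an adjusted p under 0.01, 1 with the fold limit and 2 to 10 with a library or mouse left out. The columns as labelled share reads, which brings them closer together. For the mean Wnt3a effect (26), it was 2 with the fold limit and 16 to 26 with a library or mouse left out. The interaction with the remainder as Wnt3a+IL4 (0) gave 3 with all genes of at least 1 count, 1 with DESeq2 and 0 with any library or mouse left out. That with the difference as Wnt3a+IL4 (10) gave 3 with the columns as labelled, 2 with the fold limit and 4 to 11 with a library or mouse left out. Of the isozyme shares (8), 0 passed without a mouse, where the smallest p that 4 libraries against 4 can give is 0.029 and the lowest adjusted p was 0.057 to 0.1. Beyond the fold limit and fewer samples, the cause of these changes was not tested. The 1 direction that turned was that of Egln3 in the remainder (-0.49), at 0.50 with the columns as labelled.

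With the mouse as a replicate block, the counts were 3 for IL4, 23 for the difference, 16 for the remainder (Gapdh, Gpi1 and Tkt lost), 6 for remainder against difference, 25 for the mean Wnt3a effect (Pfkm lost), 0 and 10 for the interactions, and 8 for the isozyme shares, permuted within each mouse. Scaling by total counts alone shifted the median of all genes by -0.10 in the difference and by -0.13 in the remainder, and changed the split of all called genes from 1462 higher and 1422 lower to 1131 and 2238 in the difference, from 1687 and 1450 to 1293 and 2342 in the remainder, and from 2046 and 2004 to 1633 and 2866 under the mean Wnt3a effect. Depth limits Egln3, Gapdh and Pdk4 most.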
